A study of Bos taurus with 6 samples.

Results

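The PFKFB genes encode the bifunctional enzymes 6-phosphofructo-2-kinase/fructose-2,6-bisphosphatase, and all 4 of them (PFKFB1, PFKFB2, PFKFB3 and PFKFB4) were found by gene name among the 36075 genes of the expression table, each under 1 Ensembl identifier. They were chosen by name with the values of this comparison already known, so their levels in control and MT-treated blastocysts are given as a description, with no test. The samples were bovine (Bos taurus) blastocysts produced in vitro from slaughterhouse oocytes. Melatonin (MT) was present at 1e-07 mol/L during the 22 h of oocyte maturation in the MT-treated group and absent in the control group. After fertilization, embryos of both groups were cultured in the same medium under 5% oxygen, and each group had 3 libraries, each from a pool of 3 blastocysts of a separate in vitro production run. A pool holds inner cell mass, trophectoderm and hypoblast together, so fewer cells of a type and less RNA per cell cannot be told apart.

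Fructose 2,6-bisphosphate is the strongest known allosteric activator of phosphofructokinase-1, the enzyme that commits sugar to glycolysis, and it inhibits fructose-1,6-bisphosphatase, which runs the opposite step of gluconeogenesis. PFKFB enzymes both make and remove this regulator, and the 4 isoforms differ in the balance of the kinase and bisphosphatase activities. PFKFB1 is known as the isoform of liver and muscle, PFKFB2 as that of heart, PFKFB3 as the widely expressed, inducible isoform with a strong excess of kinase activity, and PFKFB4 was described in testis. Mammalian embryos are known to take up more glucose and run more glycolysis as the blastocyst forms.

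Levels were given as TPM, a unit that corrects the reads for gene length and library total, so that levels of different genes can be compared within a library. The values in the table summed to between 936783 and 937698 per control library and between 912686 and 913707 per MT-treated library. TPM holds no counts, so the depth behind each value cannot be read from it. The paper reports sequencing depth per replicate in its supplement, which was not used here. Between 8854 and 8953 genes were above 0 in the control libraries and between 14372 and 14408 in the MT-treated libraries. Genes that nearly every cell uses were at 0 in all control libraries, among them HIF1A, both AMPK catalytic genes and, but for 0.03 TPM of PFKL in 1 library, all 3 phosphofructokinase-1 genes. Whether a 0 stands for a missing transcript or for how the table was made cannot be told apart from these values, and this holds for every contrast of 0 with signal given here, those of the PFKFB genes included. A gene without signal is therefore described as listed at 0, and no fold change is read from it.

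The control libraries listed 1 PFKFB gene and the MT-treated libraries a different pair. PFKFB2 (ENSBTAG00000002126) had 31.83, 32.00 and 28.54 TPM across the control libraries and was listed at 0 in each MT-treated library. PFKFB3 (ENSBTAG00000008401) was listed at 0 in each control library and had 40.44, 45.25 and 50.05 TPM across MT-treated libraries. PFKFB4 (ENSBTAG00000006752) was also listed at 0 in each control library, with 15.56, 14.58 and 14.96 TPM across MT-treated libraries. For these 3 genes no library of one group overlapped the other group, and within each group the libraries lay on the same side. PFKFB1 (ENSBTAG00000000172) was listed at 0 in all 6 libraries and was the member that did not reach the level required for testing, which was 1 TPM or more in 3 or more libraries. The groups thus did not overlap for 3 of the 3 members that reached that level, and they did not overlap for 96.1% of all 11953 genes at that level either.

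**Figure D1:**
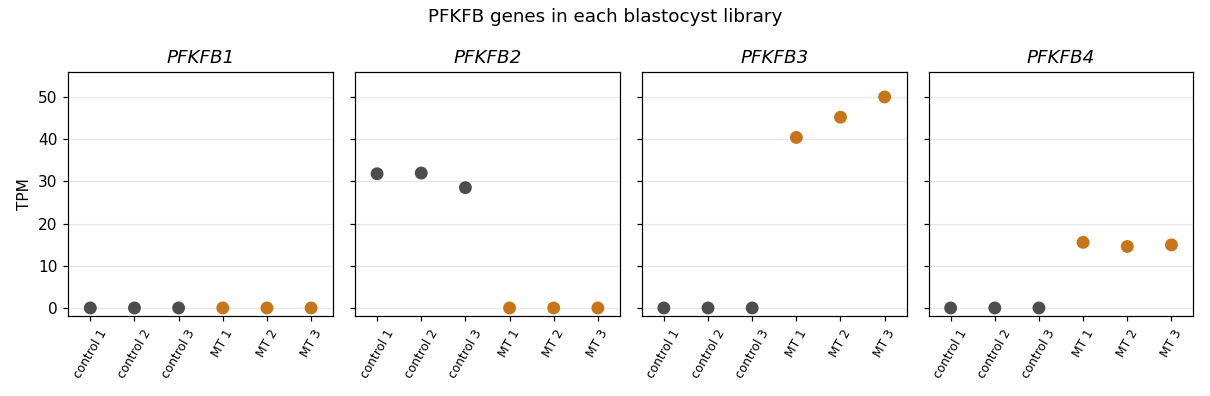
TPM (vertical axis) of each PFKFB gene in the 3 control libraries (grey) and the 3 MT-treated libraries (orange, labelled MT), 1 point per library. PFKFB2 lies between 28.54 and 32.00 in control and at 0 in MT-treated libraries, PFKFB3 and PFKFB4 are at 0 in control and at up to 50.05 and 15.56 in MT-treated libraries, and PFKFB1 is at 0 throughout.

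Being listed at 0 throughout one group was unequal between the groups across the genome. Of the 11953 genes, 33.8% were at 0 in all control libraries with at least 1 TPM in every MT-treated library, the pattern of PFKFB3 and PFKFB4. Only 3.01% showed the reverse pattern, that of PFKFB2. PFKFB3 and PFKFB4 had MT-treated means between 10 and 100 TPM, and of the 6217 genes in that range 33.0% were at 0 in all control libraries. Of the 3870 genes with a control mean in that range, which holds PFKFB2, 5.94% were at 0 in all MT-treated libraries. The members were chosen with this contrast known, so these shares are printed as background and nothing is read from them.

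Within their libraries the listed isoforms were moderately to highly expressed. PFKFB2 stood above 58.4%, 58.5% and 55.4% of the detected genes in control libraries 1, 2 and 3. In the MT-treated libraries PFKFB4 stood above 59.8%, 57.9% and 58.8% of the detected genes. PFKFB3 stood higher, above 80.9%, 82.6% and 84.2%. Because 14372 to 14408 genes were detected in MT-treated and 8854 to 8953 in control libraries, these places cannot be compared between the groups. The order of levels in each MT-treated library was PFKFB3, then PFKFB4, with PFKFB1 and PFKFB2 both at 0. The lowest PFKFB3 value (40.44 TPM) lay well above the highest PFKFB4 value (15.56 TPM), so this order did not depend on the library. In TPM, PFKFB3 was 2.60, 3.10 and 3.35 times as abundant as PFKFB4 in the 3 MT-treated libraries (mean 3.02 ± 0.381, SD, n = 3).

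As shares of the summed family TPM, PFKFB2 made up 100% of each control library. In the MT-treated group PFKFB3 made up 74.9% ± 2.46 and PFKFB4 25.1% ± 2.46 of the sum (SD, n = 3). These shares are formed within a library and do not change when a library is rescaled. The summed TPM of the 4 genes was 31.83, 32.00 and 28.54 in control and 56, 59.83 and 65.01 in MT-treated libraries, or 30.8 ± 1.95 against 60.3 ± 4.52 (SD, n = 3 each), a ratio of 1.96. All MT-treated sums lay above all control sums. The ratio was 2.75 when TPM was divided by each library's median over genes with at least 1 TPM in all 6 libraries.

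The members differed in how closely the replicate pools agreed. PFKFB3 varied most, with a coefficient of variation of 10.6% over the 3 MT-treated libraries, larger than that of 81.1% of the 6217 genes with a mean of 10 to 100 TPM in that group, whose median was 4.63%. PFKFB4 varied by 3.29%, below that median. In control, PFKFB2 varied by 6.33%, larger than that of 82.4% of the 3870 genes of the same range, whose median was 3.04%. PFKFB3 and PFKFB2 thus varied more between pools than most genes of like level, whereas PFKFB4 did not.

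The genes most like each member were found by the Euclidean distance of log2(TPM + 1) over the 6 libraries among tested genes with a symbol. The 3 nearest to PFKFB2 were MOCOS (distance 0.11), RBM44 (0.132) and ZNF2 (0.133). MOCOS, the molybdenum cofactor sulfurase, had 30.04, 30.49 and 29.21 TPM in control and was listed at 0 in MT-treated libraries. Nearest to PFKFB3 were COBL (0.113), MPPE1 (0.121) and MARCHF6 (0.129). COBL, an actin nucleator, was listed at 0 in control and had 40.32, 46.67 and 46.50 TPM across MT-treated libraries. PFKFB4 had closer neighbours, IKBIP (0.0250), KLC1 (0.0333) and LHX8 (0.0616). KLC1, a kinesin light chain, was listed at 0 in control and had 15.83, 14.53 and 15.22 TPM. With 2 groups of 3 libraries, such a distance mostly reflects the level in the group where the gene is listed.

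The bovine RefSeq annotation (ARS-UCD2.0) was used only for the order of genes, because the reads were aligned to another build. No pair of PFKFB genes neighboured each other. PFKFB1, PFKFB2 and PFKFB4 overlapped no annotated gene, whereas PFKFB3 overlapped PRKCQ, a protein kinase C, and an uncharacterized locus. PRKCQ had 60.61, 56.74 and 49.90 TPM in control and 14.59, 17.85 and 18.13 TPM across MT-treated libraries, opposite to PFKFB3. The overlap was taken from whole gene spans, without exons or strand, and the strand setting of the counting is not given in the sources used here. Whether the overlap touched the counted reads of PFKFB3 or PRKCQ was therefore not tested. The next protein-coding genes of the table, chosen after the members' values were seen, shared the direction of the member beside them in some cases and not in others. Beside PFKFB4, SHISA5 had 171.36, 172.19 and 175.44 TPM in control and 45.06, 47.22 and 49.86 TPM across MT-treated libraries, whereas TREX1, the next gene on that side, was listed at 0 in control and had 15.98, 15.34 and 15.19 TPM across MT-treated libraries. Beside PFKFB2, C4BPB was listed at 0 in control and had 10.30, 10.41 and 12.79 TPM across MT-treated libraries, YOD1 was listed at 0 in all 6, and C16H1orf116 fell from 6.15, 6.39 and 6.21 to 0.13, 0.19 and 0.11 TPM (limma adjusted p = 5.50e-09). Beside PFKFB3, RBM17 rose from 4.24, 4.59 and 3.82 to 37.33, 34.48 and 34.6 TPM (limma adjusted p = 4.54e-08), and ITIH5 was listed at 0 in all 6 libraries.

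The enzymes that respond to fructose 2,6-bisphosphate were examined next, with TIGAR, a further phosphatase that removes it. Genes outside the PFKFB family were tested with limma on log2(TPM + 1) over all 11953 genes, with Benjamini-Hochberg adjustment. The p-values set a difference against the spread between these pools, with 1 estimate of spread per gene for both groups. A group at 0 in all its libraries shows no spread, which lowers that estimate. The p-values of such genes therefore carry the limit on values at 0. Of this list of 6 genes, 4 were tested, 2 were called higher and 2 lower, where 61.6% of all tested genes were called higher and 34.1% lower in MT-treated blastocysts. Phosphofructokinase-1, the activated enzyme, has 3 genes. PFKL, the liver type, had 0.03, 0 and 0 TPM in control and 42.83, 42.32 and 46.38 TPM across MT-treated libraries (limma adjusted p = 8.02e-10). PFKP, the platelet type, was listed at 0 in control and had 10.54, 11.39 and 9.98 TPM across MT-treated libraries (limma adjusted p = 5.12e-09). PFKM, the muscle type, was listed at 0 in all 6 libraries. The control libraries therefore listed a PFKFB gene with at most 0.03 TPM of any phosphofructokinase-1 gene.

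The inhibited enzyme showed the reverse. FBP1, the main fructose-1,6-bisphosphatase, had 58.03, 56.20 and 59.65 TPM in control and was listed at 0 in each MT-treated library (limma adjusted p = 5.70e-10). FBP2 was listed at 0 in all 6 libraries. TIGAR had 75.91, 98.96 and 92.74 TPM in control and 34.73, 32.81 and 34.88 TPM across MT-treated libraries, a log2 difference of -1.35 (standard error 0.10, limma adjusted p = 1.69e-05). It was the member of this list with signal in all 6 libraries, and its groups did not overlap. Within each control library the PFKFB sum was 0.549, 0.569 and 0.478 times the fructose-1,6-bisphosphatase sum (mean 0.532 ± 0.0476, SD, n = 3). Within each MT-treated library it was 1.05, 1.11 and 1.15 times the phosphofructokinase-1 sum (mean 1.11 ± 0.0526, SD, n = 3).

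Other steps of the pathway were also summed over their paralogs, an arrangement made after the values were seen. Phosphoglycerate mutases, which act in the lower part of glycolysis, summed to 286 ± 6.94 TPM in control and 564 ± 5.20 TPM across MT-treated libraries (SD, n = 3 each), nearly all of it PGAM1. PGAM2 was listed at 0 in control and had 8.26, 8.5 and 7.18 TPM across MT-treated libraries. Pyruvate kinases, which form pyruvate, summed to 811 ± 18.2 against 464 ± 16.2 TPM (SD, n = 3 each), nearly all of it PKM. Lactate dehydrogenases, at the end of the pathway, summed to 372 ± 2.29 against 765 ± 16.2 TPM (SD, n = 3 each), and both LDHA and LDHB were listed in all 6 libraries. Phosphofructokinase-1 and fructose-1,6-bisphosphatase were the steps among these, besides the PFKFB family, where no paralog was listed in every library.

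**Figure D2:**
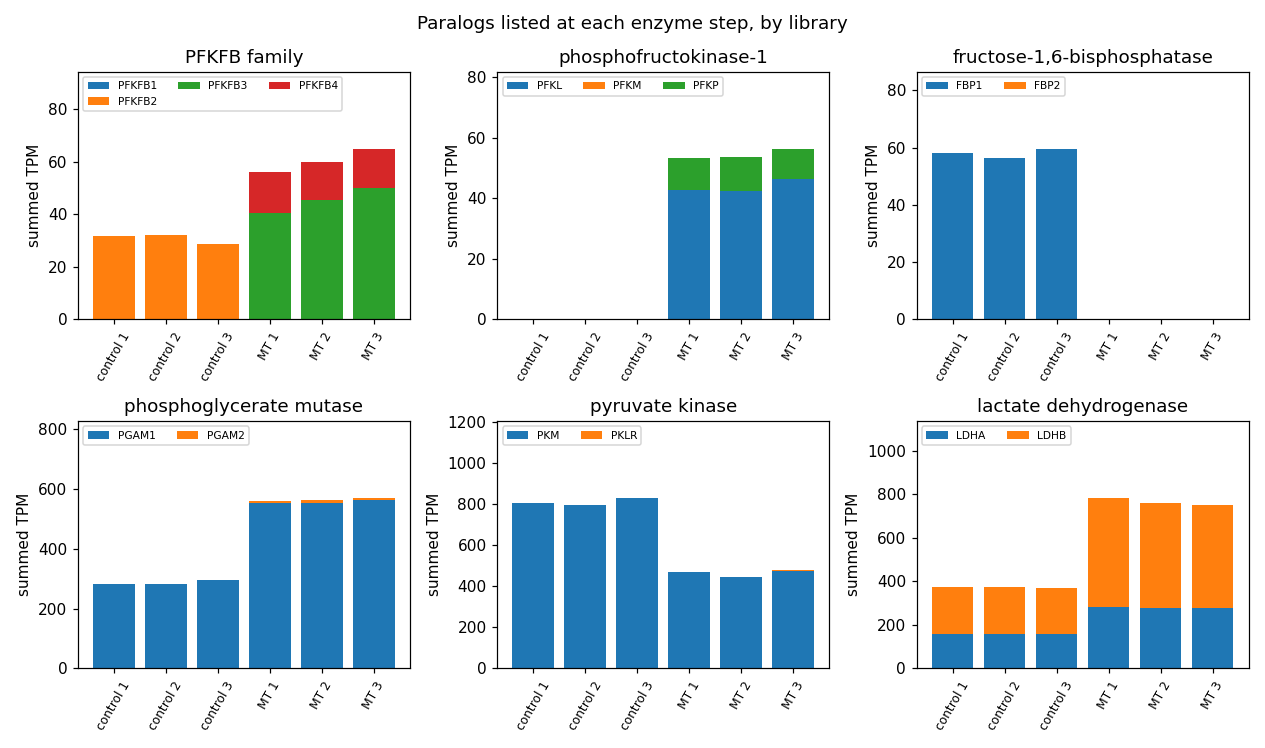
Summed TPM (vertical axis, from 0, a separate scale per panel) of the paralogs at 6 enzyme steps in each of the 6 libraries (control 1 to 3, MT 1 to 3), with colours marking the genes. The PFKFB, phosphofructokinase-1 and fructose-1,6-bisphosphatase panels share no gene between the groups above 0.03 TPM, while PGAM1, PKM, LDHA and LDHB are present in both.

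The list of 21 other glycolytic enzymes held 18 tested genes, of which 10 were called higher and 8 lower (limma adjusted p from 5.70e-10 to 0.000286), beside 61.6% and 34.1% of all tested genes. When each library was centred on its median gene, which adds 0.48 on the log2 scale to the difference, 15 were higher and 3 lower, where 70.4% of all tested genes were then higher and 25.4% lower. HKDC1, a hexokinase domain protein, had 1.36, 1.54 and 1.48 TPM in control and 33.89, 26.48 and 31.14 TPM across MT-treated libraries, a rise (limma adjusted p = 6.71e-08). ENO3, an enolase, fell from 34.6 ± 0.811 to 14.3 ± 0.468 TPM (SD, n = 3 each, limma adjusted p = 1.3e-07). ENO2, HK3 and PKLR were not tested, of which ENO2 and HK3 were listed at 0 in all 6 libraries.

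Among 13 genes related to the transport of sugars and of monocarboxylates such as lactate, SLC2A5 and BSG included, 8 were tested. Of these, 5 were called higher, SLC2A5 and BSG among them, and 3 lower, beside 61.6% and 34.1% of all tested genes. SLC2A1 and SLC2A3, the main glucose transporters of the embryo, fell from 191 ± 2.39 to 113 ± 2.42 TPM and from 255 ± 1.32 to 168 ± 1.94 TPM (SD, n = 3 each, limma adjusted p = 1.40e-07 and 7.02e-08). SLC2A8, a transporter of internal membranes, was listed at 0 in control and had 39.99, 38.71 and 40.82 TPM across MT-treated libraries. SLC16A7, a pyruvate and lactate carrier, had 0.02, 0.11 and 0 TPM in control and 22.06, 22.49 and 22.32 TPM across MT-treated libraries.

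The pentose phosphate pathway branches off before phosphofructokinase-1, and all 7 of its listed genes were tested. Of these, 4 were called higher and 3 lower, and 6 were higher and 1 lower after median centring. Over all tested genes the shares were 61.6% and 34.1%, and 70.4% and 25.4% after that centring. TALDO1, the transaldolase, fell from 510 ± 3.33 to 396 ± 7.16 TPM (SD, n = 3 each, limma adjusted p = 1.37e-06), but its direction turned under median centring (log2 difference 0.12). PGLS rose from 19.9 ± 1.46 to 65.0 ± 2.47 TPM and RPE from 53.8 ± 1.55 to 93.7 ± 2.15 TPM (SD, n = 3 each, limma adjusted p = 3.40e-07 and 5.59e-07).

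**Figure D3:**
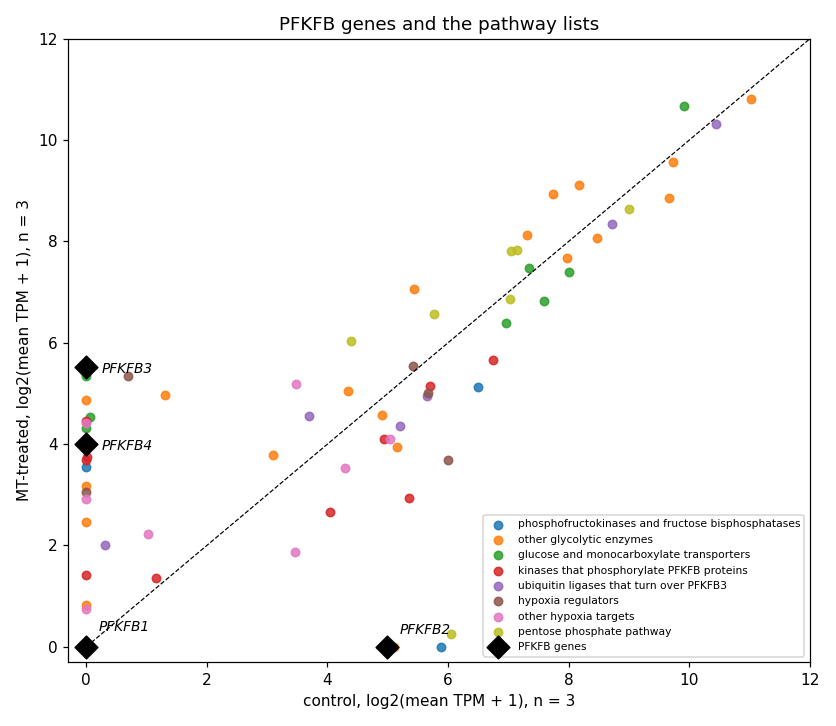
Mean level of each gene of the 8 pathway lists (coloured points) and of the 4 PFKFB genes (black diamonds), as log2(mean TPM + 1) over 3 control (horizontal) and 3 MT-treated libraries (vertical), with the line of equal levels dashed. PFKFB3 and PFKFB4 lie on the vertical axis, with 16 pathway genes that were at 0 in control only, PFKFB2 lies on the horizontal axis near FBP1, and most abundant glycolytic genes lie near the line.

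PFKFB proteins are tuned by phosphorylation, and genes of the kinases known to act on them were taken as a list of 16 genes. The list includes the beta and gamma subunits of AMPK beside catalytic genes. Of these, 12 were tested, 7 were called higher and 5 lower, beside 61.6% and 34.1% of all tested genes. In the same list 5 were higher and 7 lower after quantile normalization, which called 46.4% of all tested genes higher and 44.4% lower. AMPK, the energy sensor that phosphorylates PFKFB2 and PFKFB3, is built from catalytic, beta and gamma subunits. The catalytic subunit PRKAA1 was listed at 0 in control and had 11.65, 11.75 and 11.98 TPM across MT-treated libraries, and PRKAA2 was listed at 0 in all 6. The beta subunit PRKAB1 was listed at 0 in control and had 43.67, 42.04 and 47.25 TPM across MT-treated libraries. PRKAG1, a gamma subunit, was present throughout and fell from 51.2 ± 0.514 to 34.4 ± 0.263 TPM (SD, n = 3 each, limma adjusted p = 5.34e-07). PRKAG2, another gamma subunit, was listed at 0 in control and had 28.41, 20.23 and 14.06 TPM across MT-treated libraries (limma adjusted p = 3.06e-06), and PRKAG3 was listed at 0 in all 6. The beta subunit PRKAB2 had at most 0.02 TPM in control and 12.08, 13.16 and 11.93 TPM across MT-treated libraries. The control libraries thus listed PFKFB2 without either AMPK catalytic gene.

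Insulin signalling reaches PFKFB2 through AKT kinases. AKT1 fell from 29.8 ± 0.849 to 16.2 ± 1.12 TPM (SD, n = 3 each, limma adjusted p = 8.86e-06). AKT2 was at 0 in control and at 1.54, 1.98 and 1.47 TPM across MT-treated libraries, a rise that turned to a fall under quantile normalization. RPS6KA3 and MAPKAPK2, kinases downstream of MAP kinases, fell from 40.0 ± 0.544 to 6.66 ± 0.593 TPM and from 105.9 ± 0.601 to 49.8 ± 1.66 TPM (SD, n = 3 each, limma adjusted p = 6.62e-08 and 8.63e-08). PRKACB, a catalytic subunit of protein kinase A, which phosphorylates PFKFB1 in liver, was listed at 0 in all 6 libraries, and PRKACA had 0.05 TPM in MT-treated library 3 and 0 in the others.

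PFKFB3 protein is known to be removed by the ubiquitin ligases APC/C, with its activator FZR1, and SCF, with the substrate receptor BTRC. All 6 genes of this list were tested, and 2 were called higher and 4 lower, against 4 higher and 2 lower after median centring and 1 higher and 5 lower after quantile normalization. The shares of all tested genes called higher and lower were 61.6% and 34.1%, then 70.4% and 25.4%, then 46.4% and 44.4%, in the same order. FZR1 had 0.24, 0.17 and 0.29 TPM in control and 2.96, 3.11 and 2.98 TPM across MT-treated libraries, a rise in the deposited values (limma adjusted p = 8.21e-08) that turned to a fall under quantile normalization. BTRC fell from 49.5 ± 0.972 to 30.1 ± 0.423 TPM (SD, n = 3 each, limma adjusted p = 4.44e-07), and its paralog FBXW11 fell from 35.9 ± 1.37 to 19.4 ± 1.3 TPM (SD, n = 3 each, limma adjusted p = 8.96e-06). CUL1, the scaffold of SCF, rose from 11.95 ± 0.254 to 22.4 ± 0.503 TPM (SD, n = 3 each, limma adjusted p = 4.71e-07).

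PFKFB3 and PFKFB4 are classical targets of the hypoxia-inducible factors, whose alpha subunits are degraded after hydroxylation by EGLN enzymes. Of 8 listed regulators, 7 were in the table and 5 were tested, with 2 called higher and 2 lower, where 61.6% and 34.1% of all tested genes were called. HIF1A was listed at 0 in control and had 7.48, 7.22 and 7.20 TPM across MT-treated libraries (limma adjusted p = 1.28e-09). EPAS1, another alpha subunit, rose from 0.617 ± 0.0306 to 39.6 ± 5.97 TPM (SD, n = 3 each, limma adjusted p = 4.21e-08). The beta subunit ARNT was listed at 0 in all 6 libraries. EGLN1, the main oxygen-sensing hydroxylase, fell from 63.1 ± 0.441 to 11.9 ± 0.966 TPM (SD, n = 3 each, limma adjusted p = 5.75e-08). HIF1AN, which hydroxylates the same subunits at another site, fell from 49.98 ± 0.982 to 31.3 ± 0.751 TPM (SD, n = 3 each, limma adjusted p = 1.10e-06). EGLN2 had 41.9 ± 1.26 and 45.5 ± 2.57 TPM (SD, n = 3 each, limma adjusted p = 0.0566), and it was called higher without MT-treated replicate 2, after quantile normalization and after median centring (limma adjusted p = 0.00898, 0.000451 and 2.04e-05).

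Of 12 other known hypoxia targets listed, 11 were in the table and 7 were tested, with 4 called higher and 3 lower, and 3 higher and 4 lower after quantile normalization. All tested genes were called higher and lower in 61.6% and 34.1% of cases, and in 46.4% and 44.4% after quantile normalization. CA9, a carbonic anhydrase, was listed at 0 in control and had 20.86, 19.55 and 21.08 TPM across MT-treated libraries. ADM, which encodes adrenomedullin, was listed at 0 in control and had 6.8, 7.07 and 5.69 TPM. KDM3A, a histone demethylase, fell from 9.99 ± 0.440 to 2.64 ± 0.0603 TPM and P4HA1, a collagen prolyl hydroxylase, from 31.7 ± 2.16 to 16.2 ± 0.803 TPM (SD, n = 3 each, limma adjusted p = 8.02e-08 and 9.31e-06).

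**Figure D4:**
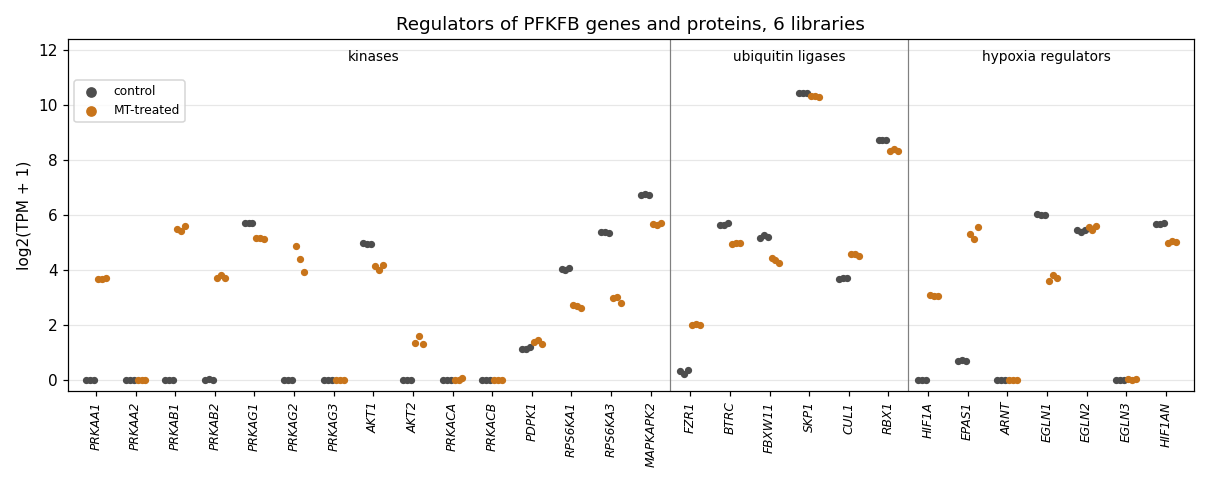
log2(TPM + 1) (vertical axis) of 15 kinase genes (beta and gamma subunits of AMPK included), 6 ubiquitin ligase genes and 7 hypoxia regulators in the 3 control (grey) and 3 MT-treated (orange) libraries, 1 point per library. PRKAA1, PRKAB1 and HIF1A are at 0 in control only, PRKAA2, PRKACB and ARNT are at 0 in all 6 libraries, and EGLN1, AKT1 and BTRC are lower in MT-treated libraries.

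Across the 8 lists together, 86 of 88 genes were in the table and 67 were tested. Of these, 36 (53.7%) were called higher and 30 (44.8%) lower, against 61.6% and 34.1% of all tested genes. After median centring 46 were higher and 21 lower, beside 70.4% and 25.4% of all tested genes under the same centring. Their median log2 difference was 0.69, and that of all tested genes 1.12, both raised by genes at 0 in control, whose difference depends on the pseudocount. Over genes above 0 in all 6 libraries it was -0.26 for 48 pathway genes and -0.19 for 6925 tested genes.

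Markers of the cell types of the blastocyst were examined as well. NANOG was listed at 0 in all control libraries, as were CDX2 and ELF5, and SOX2 was at most 0.02 TPM there, while POU5F1, KRT8 and KRT18 were high in all 6 libraries. Of 5 inner cell mass markers, 4 were above 0 in any control library and 5 in MT-treated libraries, with sums of 220.1 to 221.4 and 302 to 305 TPM. Of 8 trophectoderm markers, 6 and 8 were above 0, with sums of 11336 to 11679 and 10519 to 10874 TPM, most of it KRT8. KRT8 fell from 8695 ± 145 to 6905 ± 133 TPM (SD, n = 3 each), but its direction turned under median centring. The other 7 trophectoderm markers were called higher, as were 61.6% of all tested genes, though TEAD4 was not called after quantile normalization. Of 5 hypoblast markers, 1 and 4 were above 0, with sums of 0.2 to 0.44 and 61.2 to 69.6 TPM. Cumulus and granulosa cell markers summed to 17.2 to 19.2 TPM in control and 15.1 to 17.1 TPM across MT-treated libraries, nearly all of it FSHR, with HAS2, PTX3 and CYP19A1 at or near 0. Oocyte markers summed to 45.6 to 49.3 and 21.6 to 24.0 TPM, nearly all of it OOEP, with GDF9 and the zona pellucida genes ZP2, ZP3 and ZP4 at 0. The part of these markers, and of the difference in detected genes, in the PFKFB values was not tested.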

How the data were processed

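RNA was measured in 6 libraries, 3 per group, assigned by the sample titles. The authors deposited 1 table of TPM, a value for each gene in each library, with 2 decimals. Reads were aligned with STAR 2.7.9a and counted with featureCounts (Subread 1.6.3), and FastQC 0.11.9 was used for quality control. The paper and the submitters' processing notes name different versions of the ARS-UCD build, and how counts became TPM is not given in the sources used here. The labels name a TruSeq kit and the paper Smart-seq2, so the chemistry is uncertain. Depth cannot be derived from TPM, so no counting interval is given.

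After log2(TPM + 1) transformation, genes reaching 1 TPM in 3 or more libraries entered a linear model in limma 3.58.1 (R 4.3.3, lmFit, eBayes with trend), with Benjamini-Hochberg adjustment at 0.05 over all tested genes. Summaries and plots were made in pandas 2.3.3 and matplotlib 3.10.9 under Python 3.11.15. With 3 against 3 libraries, no exact permutation test of a single gene can go below 0.1, and none was run.

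Alternatives were another pseudocount, no or a higher minimum TPM, quantile normalization, median centring, no trend, a replicate block and leaving out each library.

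The members and gene lists were chosen with earlier results of these data known, and the lists come from general knowledge. Genes named were the members, all genes of the phosphofructokinase and bisphosphatase list, kinases and hypoxia regulators described by role, up to 2 rises and 2 falls of each other list, and the 3 genes nearest each member, apart from a few that are not reported here. Genes that overlap or neighbour a member, or that were summed by enzyme step, were added after values were seen. Replicates were treated as unpaired, because, although treatments ran side by side within production runs, no source used here says that a replicate number marks the same run in both groups. VHL, BNIP3 and AMH were not analysed here. No sequence was used.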

Additional observations from a re-analysis of the deposited data

How the results depend on the processing

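Because 1 group of PFKFB2, PFKFB3 and PFKFB4 was listed at 0, the choice of these genes fixed the direction of their difference, and its size on the log2(TPM + pseudocount) scale follows the pseudocount and is no fold change. For PFKFB2 it was -4.99 with a pseudocount of 1, -8.27 with 0.1, -4.91 after quantile normalization and -4.51 after median centring. For PFKFB3 it was 5.53, 8.82, 4.57 and 6.01, and for PFKFB4 4.0, 7.24, 2.20 and 4.48 in the same order. Quantile normalization takes values at 0 above 0, and centring adds the same amount to all genes of a library. The ratio of the family sums, MT-treated over control, was 1.96. It ran from 1.88 to 2.03 when 1 library was left out and was 2.75 with median scaling, an alternative added after seeing the data. Each sum held only genes listed at 0 in the other group, so these values do not bear on what a 0 stands for. The PFKFB3 share of the MT-treated sum stayed between 73.9% and 76.3% when 1 library was left out.

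Over all pathway lists 36 genes were higher and 30 lower. These counts were 33 and 34 after quantile normalization, 46 and 21 after median centring, 31 and 30 with a minimum TPM of 5, 38 and 30 without a filter, and 36 and 30 both with a pseudocount of 0.1 and without the trend. In the list of other glycolytic enzymes, 8 lower genes became 3 after median centring. In the pentose phosphate list, 3 became 1. Among the ubiquitin ligases, 2 higher genes became 1 with a minimum TPM of 5.

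The study ran its treatments side by side within each production run, so the groups may share runs, but which library came from which run is not given in the sources used here. Same-numbered libraries had correlations of their deviations of -0.0115, -0.000679 and 0.0588 across genes, which neither shows nor excludes a pairing, and the libraries were treated as unpaired. With the replicate block the log2 differences of the members were the same (-4.99, 5.53 and 4.0), the family ratio was 1.96, and 37 pathway genes were higher and 30 lower, with EGLN2 as the added call (limma adjusted p = 0.0178). The depth that would set a detection limit for values at 0 is unknown.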
